A study of Homo sapiens with 66 samples.

Results

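E2F transcription factors and pocket proteins that bind them were followed across 11 AML cell lines as 10 genes, E2F1 to E2F8, RBL1 (p107) and RBL2 (p130). No other pocket protein gene was among the members. The members were taken by gene symbol, through the Ensembl identifiers of the count files, and all 10 were found among 57992 gene identifiers analysed. Each line was either left in medium (untreated) or exposed for 24 h to etoposide at its own IC50, and each of the 22 groups held 3 mRNA-sequencing libraries, 66 in all. Etoposide is a topoisomerase II poison, which holds the enzyme on cut DNA and so leaves double strand breaks. The lines were THP-1, NB-4, HL-60, MV-4-11, F-36P, OCI-AML3, MOLM-13, OCI-AML2, KASUMI-1, NOMO-1 and MONO-MAC-6, which the sample labels write without hyphens. All are established human leukaemia lines with no engineered change named, each is 1 culture model of the disease, and RNA was drawn from 3 pooled wells per library. Because the dose was set per line, concentration and line cannot be told apart. The study describes its experiments in general as done in 3 biological replicates, and the labels say no more of the sequenced libraries, so that the p-values measure the spread between these libraries. The study set aside its etoposide-treated OCI-AML2 libraries on raw-read quality, so that OCI-AML2 is described apart and statements over lines rest on the other 10.

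E2F proteins bind DNA with a DP partner and turn on the genes that a cell needs to enter and pass through S phase. E2F1, E2F2 and E2F3 are the activators; E2F4 and E2F5 act mainly as repressors, held with the pocket proteins p107 and p130 in resting cells, where p130 and E2F4 also form the DREAM complex with the MuvB core. E2F6 represses without a pocket protein, through polycomb-type complexes, and E2F7 and E2F8 are atypical repressors that bind DNA without a DP partner and close the S phase programme that the activators open. Cyclin-dependent kinases release E2F from the pocket proteins, and the p53 target CDKN1A (p21) holds those kinases back after DNA damage.

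Several of these genes are known to be E2F targets themselves, and the stretch before their start sites was read first. RefSeq (GRCh38.p14) gave promoter entries for 8 of the 10 members, with none for E2F5 and E2F8. The 250 bases upstream of each start were searched on both strands for the E2F-type runs TTTCGCGC, TTTGGCGC and TTTCCCGC. They were searched too for the CHR-type runs TTTGAA and TTCGAA and for CCAAT. One or more of the 3 E2F-type runs stood in 2.32% of 35116 promoter entries. They were found in the 3 activators and in RBL1, and in none of the entries of E2F4, E2F6, E2F7 or RBL2. The E2F-type run began 20 bases before the start in E2F1, 42 bases before in E2F2 and, on the other strand, 53 bases before in E2F3, while RBL1 held TTTCGCGC at 26 and TTTGGCGC at 16 bases before it. CCAAT, present in 32.0% of entries, stood 4 times in E2F3, 3 times in E2F1, 4 times in E2F7 and once in RBL2. TTTGAA (13.3% of entries) occurred once, in E2F3, and TTCGAA (1.19%) in no member. A match of letters is a description and not a bound site. The 5 promoters are shown because 4 hold E2F-type runs and the other belongs to E2F7; capitals mark the matches to any of the 6 runs (on either strand), and each sequence reads 5′ to 3′ on the strand of its gene.
E2F1, chr20:33686386-33686635, minus strand: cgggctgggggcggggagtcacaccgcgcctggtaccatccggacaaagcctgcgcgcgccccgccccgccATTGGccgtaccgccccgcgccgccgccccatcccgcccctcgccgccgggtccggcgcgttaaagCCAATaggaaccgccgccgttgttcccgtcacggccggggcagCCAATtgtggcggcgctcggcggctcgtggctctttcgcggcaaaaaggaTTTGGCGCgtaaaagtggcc
E2F2, chr1:23531234-23531483, minus strand: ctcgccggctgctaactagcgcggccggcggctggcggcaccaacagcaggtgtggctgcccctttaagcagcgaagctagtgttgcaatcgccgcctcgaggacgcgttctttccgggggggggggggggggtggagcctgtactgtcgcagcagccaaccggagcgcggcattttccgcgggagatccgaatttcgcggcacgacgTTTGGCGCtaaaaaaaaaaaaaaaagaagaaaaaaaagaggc
E2F3, chr6:20401629-20401878, plus strand: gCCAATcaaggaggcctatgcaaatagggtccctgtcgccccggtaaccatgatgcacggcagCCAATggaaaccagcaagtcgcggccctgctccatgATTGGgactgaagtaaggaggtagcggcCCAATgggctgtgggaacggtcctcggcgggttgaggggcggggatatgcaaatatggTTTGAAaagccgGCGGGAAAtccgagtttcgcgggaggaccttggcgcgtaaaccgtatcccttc
E2F7, chr12:77065570-77065819, minus strand: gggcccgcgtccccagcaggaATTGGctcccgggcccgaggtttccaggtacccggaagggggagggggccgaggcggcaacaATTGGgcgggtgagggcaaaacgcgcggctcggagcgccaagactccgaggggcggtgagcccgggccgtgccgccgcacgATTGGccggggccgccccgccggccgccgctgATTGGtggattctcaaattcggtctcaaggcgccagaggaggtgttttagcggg
RBL1, chr20:37095998-37096247, minus strand: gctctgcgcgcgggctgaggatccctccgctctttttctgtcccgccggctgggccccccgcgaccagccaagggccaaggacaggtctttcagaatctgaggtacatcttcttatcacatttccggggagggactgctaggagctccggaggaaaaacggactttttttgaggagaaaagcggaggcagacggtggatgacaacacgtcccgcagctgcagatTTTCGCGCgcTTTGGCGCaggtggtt

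The libraries held 17997404 to 24101670 reads on genes (median 20241014), and levels are given in CPM, the read count relative to the TMM-scaled total of its library. Myeloid markers were present in every untreated line, with 4 of 6 at 1 CPM or more in F-36P, 5 in HL-60 and 6 in the other 9. F-36P alone held all 5 erythroid markers, which summed to 837 CPM against 6.09 to 25.1 CPM elsewhere. The 7 markers of other lineages summed to 0.485 to 18 CPM in 9 lines, with CD3D at 156 CPM in NOMO-1 and EPCAM at 81.9 CPM in KASUMI-1. Their part in the results below was not tested. With library size in place of TMM, the median log2 fold change of all genes moved from 0.09 to 0.34 in F-36P, from 0.0084 to 0.21 in NB-4, from 0.03 to 0.20 in KASUMI-1 and by less elsewhere, so that changes are read relative to the bulk of genes.

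In untreated cells the family was dominated by a few transcripts. Levels were divided by kilobases of exon to set genes side by side. This length joins all annotated exons of a gene and can exceed the transcript made, so the order of genes is approximate. E2F4 had the highest median level over the 11 lines (39.1 CPM per kb). Next came E2F1 (26.9), E2F3 (18.2), RBL2 (17.1), E2F8 (10.4) and RBL1 (10.2). E2F6, E2F7 and E2F5 lay at 4.29, 4.03 and 2.87 CPM per kb. E2F2 was by far the scarcest, at 0.283 CPM per kb, and its libraries held only 3 to 166 reads on it. The activators made up 36.7% (OCI-AML2) to 54.1% (F-36P) of the summed E2F level, E2F4 with E2F5 31.6% (F-36P) to 45.6% (HL-60), and E2F7 with E2F8 7.19% (NB-4) to 20.1% (OCI-AML2).

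A pair of members was missing from 1 line each. E2F7 had 0 reads in all 6 NB-4 libraries, among 121518688 reads, which allows at most 0.0247 CPM (3 reads over the 6 libraries). Each other line averaged 7.14 CPM or more over its 6 libraries, untreated and treated together, on library-size scale. E2F5 had 6 reads in the 6 MV-4-11 libraries among 128837825, against a 6-library mean of at least 7.10 CPM in every other line. Untreated or treated libraries alone could lie lower than these means. Only 10 of 57992 identifiers, E2F7 included, were at 0 in NB-4 with a level elsewhere as high as that of E2F7, and 6, E2F5 included, met the same description for E2F5 in MV-4-11. These counts cover counting error only.

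The genes beside them were read in the same libraries. E2F7 lies on the minus strand at chr12:77021248-77065569 (GRCh38). Of its protein-coding neighbours in NB-4, ZDHHC17 (54.2 CPM), OSBPL8 (120.0 CPM) and PPP1R12A (90.6 CPM) were at levels within the range of the other lines. CSRP2 next to it held 12 reads and NAV3 on its other side 292 reads, and both ran from near 0 to higher levels in the other lines (up to 13.8 and 465 CPM). SYT1 and PAWR, further along, had 0 reads in NB-4; SYT1 was at 0.179 CPM or less in every other line, whereas PAWR ran from 0 in its lowest other line to 46.0 CPM in its highest. E2F5 lies on the plus strand at chr8:85177154-85217158 and shares exon bases with RBIS on the opposite strand. In MV-4-11 RBIS held 7698 reads (60.4 CPM) while E2F5 held 6, so that at most those few E2F5 reads can have come from RBIS there. LRRCC1, on the other side, was at 40.0 CPM in MV-4-11. CA13, the gene after RBIS, was at 0.473 CPM in MV-4-11, below the 0.627 to 14.3 CPM of the other lines. Whether either locus is altered in these lines was not tested.

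All 10 members differed between untreated lines by edgeR's quasi-likelihood test, against 99.4% of 18130 genes tested, so a difference between lines was the rule. Of the pairs of lines, 66.8% of all gene-pair tests passed FDR 0.05; among the members this ran from 33 of 55 pairs for E2F2 to 50 of 55 for E2F7. E2F1 was highest in MV-4-11 (101 ± 4.39 CPM, SD, n = 3), with NB-4, F-36P, THP-1, KASUMI-1 and HL-60 down to 72.5 CPM, each not different from the next (adjusted p of 0.05 or more). It was lowest in MOLM-13 (48.2 ± 3.2 CPM) and MONO-MAC-6 (39.6 ± 1.34 CPM), which differed from each other (adjusted p = 0.00523). E2F2 ran from 2.81 ± 0.279 CPM in MV-4-11 to 0.370 ± 0.0265 CPM in OCI-AML3 and 0.301 ± 0.125 CPM in F-36P; only NB-4 and OCI-AML3, next to each other in this order, differed (adjusted p = 1.19e-04). E2F3 had another order, with F-36P on top (133 ± 8.97 CPM), OCI-AML3 next (125 ± 3.89 CPM, adjusted p = 0.287) and MV-4-11 (56.0 ± 3.73 CPM) and THP-1 (49.1 ± 2.14 CPM) at the foot.

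Among the repressors, E2F4 spanned 2.33-fold, from 188 ± 13.9 CPM in HL-60 to 80.4 ± 0.664 CPM in MONO-MAC-6, and the 9 lines from HL-60 to NOMO-1 formed a run in which no line differed from the next. E2F5 ran from 25.1 ± 3.27 CPM in NB-4 to 10.9 ± 1.28 CPM in THP-1, and in MV-4-11 the 3 untreated libraries held 4 reads in all. E2F6 was highest in HL-60 (30.1 ± 2.80 CPM) and F-36P (27.6 ± 0.950 CPM, adjusted p = 0.183 between them) and lowest in THP-1 (12.5 ± 1.05 CPM).

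The atypical pair shared its top line. E2F7 was at 43.6 ± 1.90 CPM in MV-4-11, 42.5 ± 2.38 CPM in THP-1 and 40.8 ± 3.31 CPM in OCI-AML2, and fell away to 4.68 ± 0.685 CPM in MONO-MAC-6 and then to 3.63 ± 0.599 CPM in OCI-AML3 before the 0 of NB-4. E2F8 kept a narrower span, 2.81-fold, from 62.1 ± 4.24 CPM in MV-4-11 to 22.1 ± 1.80 CPM in KASUMI-1, and in NB-4, where E2F7 was absent, it stood at 36.3 ± 4.95 CPM. Of the pocket proteins, RBL1 was highest in MV-4-11 (100.4 ± 10.2 CPM), above THP-1 (70.1 ± 2.67 CPM, adjusted p = 1.47e-04), and lowest in F-36P (18.2 ± 3.04 CPM), a 5.53-fold span. RBL2 went from 204 ± 9.62 CPM in HL-60 to 79.3 ± 4.02 CPM in F-36P and 64.9 ± 1.84 CPM in MONO-MAC-6. Per kilobase, RBL2 was above RBL1 in every untreated line but MONO-MAC-6, where RBL1 was at 9.18 and RBL2 at 8.0 CPM per kb.

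**Figure D1:**
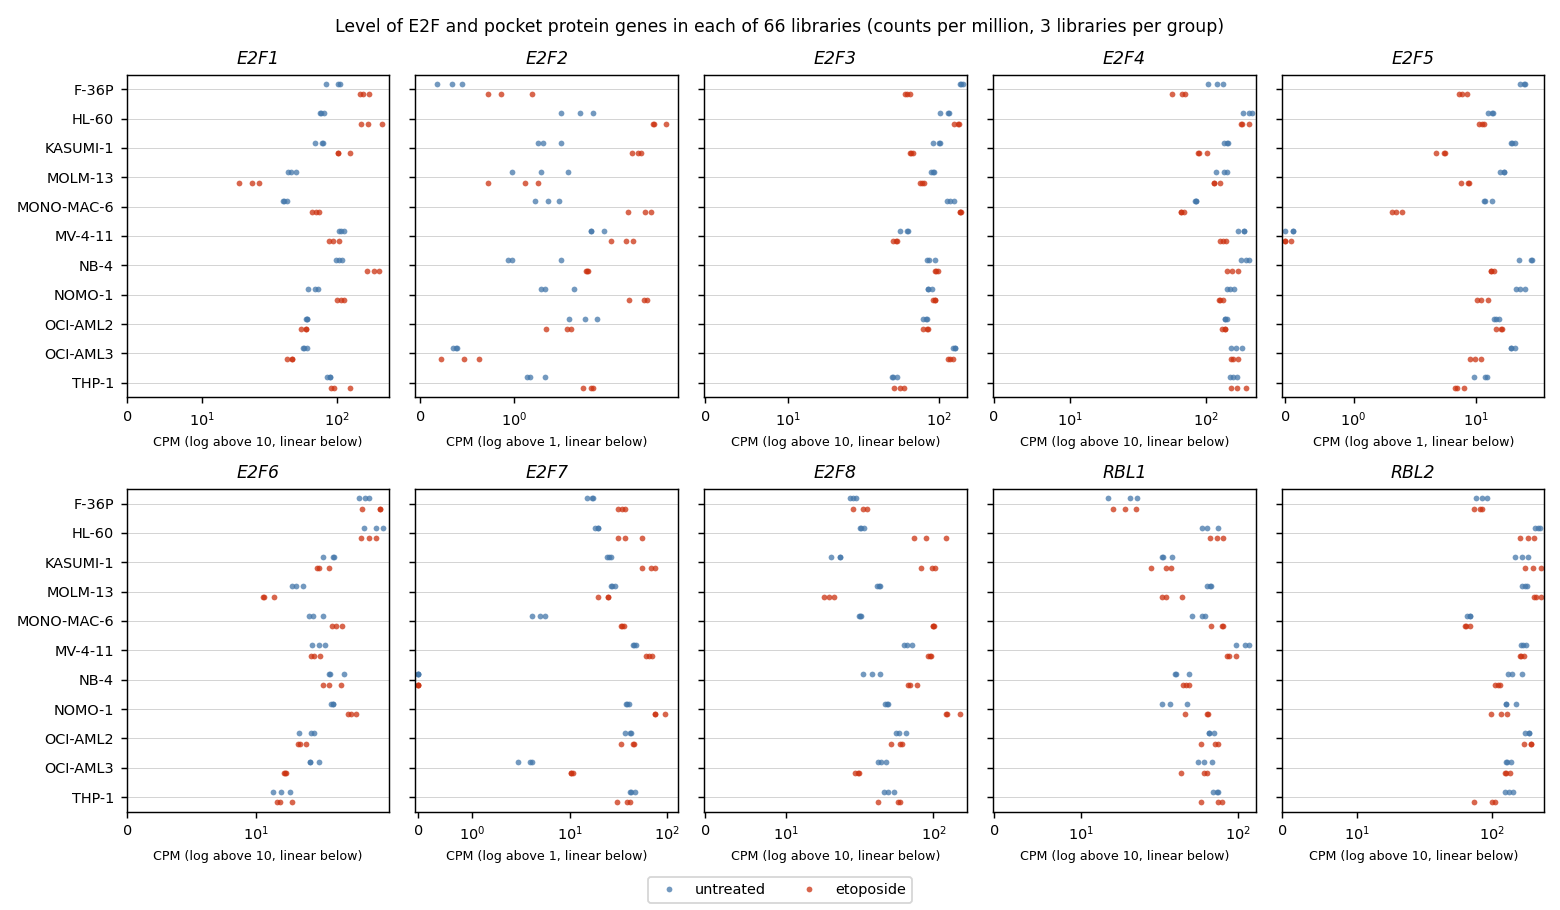
Level of each member in each library, 1 panel per gene, with CPM on the x axis (logarithmic above the stated value and linear below it), cell lines on the y axis, and untreated (blue) and etoposide-treated (red) libraries as points. E2F7 sits at 0 in all 6 NB-4 libraries and E2F5 near 0 in MV-4-11, while E2F2, E2F7 and E2F8 stand to the right of untreated in most other treated lines and E2F5 to the left.

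After 24 h of etoposide the activator E2F2 and the atypical repressors E2F7 and E2F8 rose in most lines. E2F5 fell in nearly all, and the pocket proteins RBL1 and RBL2 moved little. The 10 members gave 97 tests over the 10 lines (E2F2 in OCI-AML3, E2F5 in MV-4-11 and E2F7 in NB-4 had too few reads). At FDR below 0.05 with more than a 2-fold change, the rule of the study, 18 were higher, against 11.1% of 143149 gene-line tests, and 8 were lower, against 3.96%. At FDR below 0.05 alone, 34 were higher (background 27.7%) and 30 lower (background 24.4%). The verbs rose and fell are used below for changes at FDR below 0.05, and the p-values are adjusted over all genes tested in that line. The 3 treated libraries lay wholly above the 3 untreated ones in 36 of 100 member-line pairs and wholly below them in 31; over all tests the shares were 31.2% and 28.6%. In bulk RNA, fewer cells in a phase of the cycle and less RNA per cell cannot be told apart.

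By line, MONO-MAC-6 changed 9 of 10 members (62.3% of all genes), MOLM-13 8 of 10 members (56.2% of all genes), NOMO-1 8 of 10 members (52.7% of all genes) and KASUMI-1 7 of 10 members (60.1% of all genes). MV-4-11 changed 7 of 9 members (63.9% of all genes), F-36P 6 of 10 members (59.9% of all genes) and NB-4 6 of 9 members (59.8% of all genes). The fewest changed in HL-60, 5 of 10 members (32.5% of all genes), OCI-AML3, 5 of 9 members (40.1% of all genes), and THP-1, 3 of 10 members (32.1% of all genes). MOLM-13 stood out in direction, with 7 members lower and 1 higher, and OCI-AML3 had 4 lower and 1 higher, whereas HL-60 had 5 higher and 0 lower. Over all genes, 28.1% were higher and 28.1% lower in MOLM-13, 22.4% and 17.7% in OCI-AML3, and 17.5% and 15% in HL-60. The kinase inhibitor CDKN1A was higher in all 10 lines, with treated levels of 1941 ± 247 CPM in MOLM-13 and 1629 ± 176 CPM in OCI-AML3, and of 4.16 ± 1.33 CPM in HL-60 from 0.230 ± 0.0516 CPM untreated.

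E2F1, the best known activator, rose in 6 lines and fell in 3. In HL-60 its untreated libraries were at 77.0, 75.2 and 80.9 CPM and the treated ones at 151, 169.6 and 216 CPM (log2 fold change 1.2 ± 0.12, adjusted p = 1.49e-05). In NB-4 they went from 104, 109 and 98.2 to 168, 205 and 189 CPM (log2 fold change 0.85 ± 0.09, adjusted p = 1.44e-06). Every treated library was above every untreated one in both lines, and the same held in F-36P, KASUMI-1, MONO-MAC-6 and NOMO-1, with log2 fold changes of 0.71, 0.54, 0.75 and 0.67. MOLM-13 went the other way, from 49.7, 45.4 and 43.7 to 19.0, 26.7 and 23.4 CPM (log2 fold change -1.01 ± 0.12, adjusted p = 5.76e-05). OCI-AML3 showed a smaller fall, from 57.1, 59.7 and 56.4 to 43.0, 46.6 and 47.0 CPM (log2 fold change -0.34 ± 0.07, adjusted p = 0.00562), with no overlap, and this call was lost without replicate 1 of both groups (adjusted p = 0.0698) or without replicate 2 (adjusted p = 0.099). In MV-4-11 the treated libraries, at 87.4, 105 and 94.6 CPM, overlapped the untreated ones at 104, 108 and 114 CPM, and the fall (log2 fold change -0.18, adjusted p = 0.0204) was lost with library-size scaling and without untreated replicate 2 or untreated replicate 3 (adjusted p = 0.0528 to 0.091). THP-1 gave a log2 fold change of 0.25 (95% interval -0.04 to 0.53, adjusted p = 0.177), although its treated libraries all lay above its untreated ones, and it passed in 1 fit of 60 libraries (adjusted p = 0.0413).

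E2F2, a close relative of E2F1 among the activators, rose in 8 of 9 lines tested, more than 2-fold in 7 of them, and fell in none. MONO-MAC-6 had the highest fold change, from 1.58, 1.84 and 1.32 CPM untreated to 4.68, 6.41 and 5.85 CPM treated (log2 fold change 1.83 ± 0.18, adjusted p = 3.20e-06). KASUMI-1 went from 1.47, 1.89 and 1.37 to 5.55, 4.95 and 5.38 CPM (log2 fold change 1.74 ± 0.17, adjusted p = 2.09e-05) and NOMO-1 from 1.44, 2.23 and 1.51 to 6.02, 5.83 and 4.75 CPM (log2 fold change 1.67 ± 0.20, adjusted p = 3.14e-05). The groups did not overlap in these 3 lines, nor in HL-60, F-36P, NB-4, THP-1 and MV-4-11. In HL-60 the change was 1.54, in F-36P 1.55 (± 0.39, at no more than 1.27 CPM), in NB-4 1.06, in THP-1 1.06 and in MV-4-11 0.56 on the log2 scale; the MV-4-11 rise was lost without replicate 3 of both groups (adjusted p = 0.0714). MOLM-13 was again the exception, with treated libraries at 0.718, 1.16 and 1.38 CPM overlapping the untreated ones at 2.06, 1.43 and 0.97 CPM (log2 fold change -0.45, adjusted p = 0.275). In OCI-AML3 E2F2 stayed under the filter, at 0.344, 0.391 and 0.383 CPM untreated and 0.468, 0.224 and 0.624 CPM treated.

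E2F3, the remaining activator, moved unlike the other two. It fell in 4 lines and rose in 2, and only 1 change passed 2-fold. In F-36P the untreated libraries were at 145, 139 and 138 CPM and the treated ones at 61.0, 59.2 and 63.8 CPM (log2 fold change -1.2 ± 0.10, adjusted p = 1.05e-05), with a wide gap between the groups. KASUMI-1 went from 101, 90.8 and 101 to 66.9, 64.1 and 65.7 CPM (log2 fold change -0.57 ± 0.08, adjusted p = 1.97e-04), again without overlap. In both of these lines E2F1 and E2F2 rose while E2F3 fell. The falls in MOLM-13 (-0.24) and MV-4-11 (-0.22) and the rises in HL-60 (0.26) and MONO-MAC-6 (0.22) were small. The MV-4-11 fall was lost with library-size scaling and without replicate 2 of both groups (adjusted p = 0.119), the MONO-MAC-6 rise without replicate 3 of both groups (adjusted p = 0.0652), the MOLM-13 fall without etoposide replicate 3 (adjusted p = 0.0738), and the HL-60 rise without untreated replicate 1, untreated replicate 2, untreated replicate 3, etoposide replicate 1 or etoposide replicate 3 (adjusted p = 0.0609 to 0.161). Over the activators as a set, 8 of 29 tests were higher and 2 lower by more than 2-fold, beside 11.1% and 3.96% of all genes. Of these 8 rises the scarce E2F2 gave 7, E2F1 1 and E2F3 0, so the set figure is mainly that of E2F2. The median log2 fold change of the set was 0.26 against 0.01 over all tests.

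E2F5, a repressor that pairs mainly with p130, fell in 8 of 9 lines tested and rose in none, the reverse of E2F2. In MONO-MAC-6 it dropped from 13.5, 11.6 and 11.9 CPM to 2.23, 2.05 and 2.49 CPM (log2 fold change -2.45 ± 0.12, adjusted p = 1.65e-08). KASUMI-1 followed, from 19.7, 19.3 and 20.9 to 4.72, 5.43 and 5.61 CPM (log2 fold change -1.92 ± 0.11, adjusted p = 1.15e-06), and F-36P, from 25, 24.8 and 23.0 to 7.69, 7.26 and 8.40 CPM (log2 fold change -1.64 ± 0.13, adjusted p = 6.25e-06). No treated library reached the lowest untreated one in any of the 9 lines. The falls in NOMO-1, OCI-AML3, MOLM-13 and NB-4 lay near 2-fold, with log2 fold changes of -1.04, -1.0, -0.99 and -0.97, and THP-1 gave -0.63 (adjusted p = 0.00603), which was lost without untreated replicate 1 (adjusted p = 0.0516). HL-60 went from 13.8, 12.5 and 13.6 to 11.7, 10.5 and 11.2 CPM, a change of -0.25 that missed the threshold (95% interval -0.52 to 0.01, adjusted p = 0.133).

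E2F4, the main pocket-bound repressor, fell in 6 lines, never by as much as 2-fold, and rose in none. F-36P had the largest of these falls, from 133, 119 and 104 to 56.2, 66.6 and 69.2 CPM (log2 fold change -0.89 ± 0.14, adjusted p = 2.82e-04), and KASUMI-1 the next, from 135, 142 and 145 to 88.8, 100.5 and 86.3 CPM (log2 fold change -0.61 ± 0.08, adjusted p = 1.86e-04). The groups were apart in both, and also in MV-4-11 (-0.46), MONO-MAC-6 (-0.33), NB-4 (-0.32) and NOMO-1 (-0.23). With library-size scaling the falls in NB-4 and NOMO-1 no longer passed, the NB-4 fall was lost without replicate 1 of both groups (adjusted p = 0.0959), and the NOMO-1 fall was lost too without untreated replicate 2, untreated replicate 3, etoposide replicate 2 or etoposide replicate 3 (adjusted p = 0.0591 to 0.111). In HL-60, MOLM-13, OCI-AML3 and THP-1 the change lay between -0.16 and 0.12, within overlapping groups. E2F4 and E2F5 together gave 14 of 19 tests lower at FDR below 0.05 and 0 higher, beside 24.4% and 27.7% of all genes. E2F6, the polycomb-linked repressor, hardly moved: it rose in MONO-MAC-6 (0.31) and NOMO-1 (0.28) and fell in MOLM-13 (-0.42) and OCI-AML3 (-0.40), and the other 6 lines overlapped. The OCI-AML3 fall was lost without replicate 1 or 2 of both groups (adjusted p = 0.0576 and 0.068), and the MOLM-13 fall and MONO-MAC-6 rise without replicate 3 (adjusted p = 0.0869 and 0.0854). The NOMO-1 rise was lost without untreated replicate 1, untreated replicate 2, untreated replicate 3, etoposide replicate 1, etoposide replicate 2 or etoposide replicate 3 (adjusted p = 0.0514 to 0.107), which is each of its 6 libraries in turn, and under 13 of 17 alternatives in all.

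The atypical repressors held the highest single rises of the family, in MONO-MAC-6 for E2F7 and in KASUMI-1 for E2F8, while E2F2 had the higher median over lines (1.54, against 1.08 for E2F7 and 0.71 for E2F8). E2F7, which p53 is also known to turn on after DNA damage, rose in 7 of 9 lines tested, more than 2-fold in 6, and fell in MOLM-13 only. In MONO-MAC-6 it went from 4.95, 4.13 and 5.54 CPM to 36, 34.5 and 34.1 CPM, 7.14-fold (log2 fold change 2.84 ± 0.10, adjusted p = 1.09e-09). OCI-AML3, where E2F1 and E2F8 fell, still raised E2F7 from 4.13, 2.93 and 3.92 to 10.4, 10.9 and 10.4 CPM (log2 fold change 1.53 ± 0.14, adjusted p = 7.95e-05). These were the lines with the lowest untreated E2F7 above 0, and in neither did the groups overlap. KASUMI-1 went from 26.6, 25.2 and 24.2 to 74.6, 55.3 and 68.7 CPM (log2 fold change 1.39 ± 0.12, adjusted p = 9.20e-06) and NOMO-1 from 40.3, 38.7 and 38.1 to 75.5, 96.5 and 76.2 CPM (log2 fold change 1.08 ± 0.11, adjusted p = 6.51e-06). HL-60, F-36P and MV-4-11 gave 1.12, 1.04 and 0.49, again with all treated libraries above all untreated ones. The MOLM-13 fall was small (-0.27, adjusted p = 0.0485) and was lost under 11 of 17 alternatives, among them DESeq2 and without untreated replicate 1, untreated replicate 2, untreated replicate 3 or etoposide replicate 3 (adjusted p = 0.0744 to 0.217). In THP-1 the change was -0.24 (95% interval -0.53 to 0.05, adjusted p = 0.205). NB-4 stayed at 0 reads after etoposide as before it.

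E2F8 rose in 6 lines and fell in 2. KASUMI-1 led, from 23.0, 20.1 and 23.1 CPM to 103, 81.7 and 97.3 CPM (log2 fold change 2.09 ± 0.11, adjusted p = 7.49e-07), and MONO-MAC-6 followed, from 31.0, 32.4 and 31.5 to 99.3, 99.4 and 101 CPM (log2 fold change 1.66 ± 0.05, adjusted p = 6.73e-10). HL-60 (1.56), NOMO-1 (1.46), NB-4 (0.90) and MV-4-11 (0.51) also rose without overlap. MOLM-13 moved in the opposite direction, from 42.9, 43.1 and 41.6 to 19.3, 21.1 and 18 CPM (log2 fold change -1.13 ± 0.08, adjusted p = 3.89e-06), the only member-line fall besides E2F1 in MOLM-13, E2F3 in F-36P and the E2F5 falls to pass 2-fold. OCI-AML3 fell from 42.3, 44 and 47.7 to 30.5, 31.0 and 29.4 CPM (log2 fold change -0.56 ± 0.08, adjusted p = 6.96e-04). F-36P (0.19, adjusted p = 0.237) and THP-1 (0.10, adjusted p = 0.633) did not pass, and their groups overlapped. The atypical pair together gave 10 of 19 tests more than 2-fold higher and 1 lower, beside 11.1% and 3.96% of all genes, with a median log2 fold change of 1.04.

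The pocket proteins RBL1 and RBL2 kept their levels more closely, with 0 of 20 tests past 2-fold by edgeR or DESeq2. At FDR below 0.05 alone 3 were higher and 4 lower, beside 27.7% and 24.4% of all genes. RBL1, which is itself an E2F target, fell in MOLM-13 from 67.2, 62.8 and 65.9 to 43.9, 34.5 and 32.8 CPM (log2 fold change -0.82 ± 0.11, adjusted p = 1.17e-04), the one line without overlap in that direction. It fell slightly in MV-4-11 (-0.27), which was lost with library-size scaling, and rose in MONO-MAC-6 (0.40) and in NOMO-1, where the treated libraries at 46.0, 64.5 and 62.8 CPM overlapped the untreated ones at 47.5, 32.9 and 36.9 CPM (log2 fold change 0.56 ± 0.15, adjusted p = 0.00743). The NOMO-1 rise was lost without replicate 2 or 3 of both groups (adjusted p = 0.129 and 0.106). RBL2, the pocket protein of resting cells, rose in MOLM-13, from 181, 168 and 175 to 229.9, 211 and 205 CPM (log2 fold change 0.30 ± 0.07, adjusted p = 0.004), in the line where RBL1 fell. In THP-1 it fell from 144, 125 and 134 to 99.3, 73.1 and 105 CPM (log2 fold change -0.54 ± 0.14, adjusted p = 0.00627) and in NB-4 from 140.4, 131 and 168 to 115, 105 and 111 CPM (log2 fold change -0.41 ± 0.10, adjusted p = 0.00218), without overlap in either. The NB-4 fall was lost with library-size scaling and the THP-1 fall without untreated replicate 1 (adjusted p = 0.0507). RBL2 shares exon bases with AKTIP on the opposite strand, which held 6834 reads over the 66 libraries against 192044 for RBL2.

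**Figure D2:**
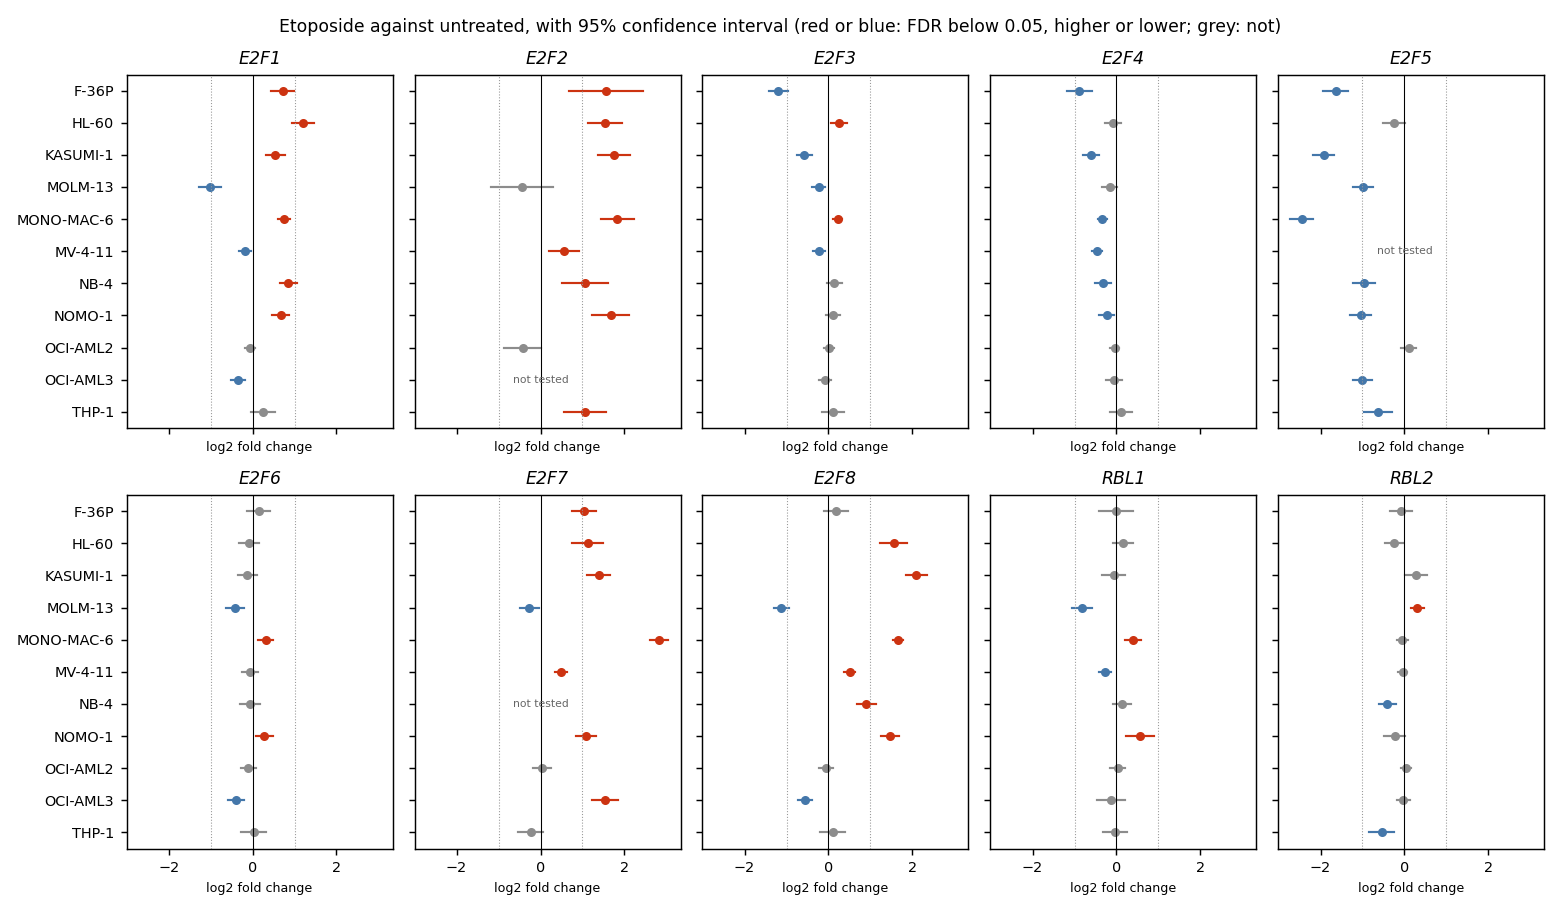
Log2 fold change of each member after etoposide (x axis) in each cell line (y axis), with its 95% confidence interval; red and blue points passed FDR 0.05 as higher and lower, grey points did not, and dotted lines mark 2-fold. E2F5 lies left of 0 in the 9 lines tested besides OCI-AML2, E2F2 and E2F7 lie mostly right of it, and MOLM-13 is the line in which E2F1, E2F7, E2F8 and RBL1 are all blue.

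The mean change was then taken with the cell line as the unit, by limma on 1 log2 fold change per line. Among the 7 members tested in all 10 lines, only E2F4 passed, with a mean of -0.30 ± 0.09 (SE), adjusted p = 0.0149, negative in 9 of 10 lines; 45.2% of 10588 genes passed this test. The E2F4 mean was lost with library-size scaling (adjusted p = 0.0515) and without replicate 1 of every group (adjusted p = 0.0511). E2F8 averaged 0.68 ± 0.28 (SE), adjusted p = 0.0649 and E2F1 0.34 ± 0.18 (SE), adjusted p = 0.141, and each was positive in all lines but MOLM-13 and OCI-AML3, E2F1 also MV-4-11. Without MOLM-13 both passed, at 0.88 (adjusted p = 0.0136) for E2F8 and 0.49 (adjusted p = 0.0171) for E2F1. E2F3, E2F6, RBL1 and RBL2 averaged -0.15, -0.04, -0.0082 and -0.10. An alternative chosen after seeing the data took genes tested in at least 8 lines (44.1% of 12356 passed). There E2F5 averaged -1.21 ± 0.20 (SE), adjusted p = 8.79e-04, E2F2 1.17 ± 0.22 (SE), adjusted p = 0.00185, and E2F7 1.0 ± 0.27 (SE), adjusted p = 0.0119, each over 9 lines.

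The response differed between lines for all 10 members by edgeR's line-by-treatment test in 1 fit of 60 libraries, which 74.5% of 19974 genes passed as well. E2F8 had the widest span of log2 fold change in that fit, 3.2 (adjusted p = 7.51e-24), then E2F7 with 3.04 (4.46e-17), E2F5 with 2.23 (1.65e-14), E2F2 with 2.21 (8.09e-07) and E2F1 with 2.18 (4.32e-17), where the numbers in brackets are adjusted p-values. The spans of E2F2, E2F5 and E2F7 include the lines that fell under the per-line filter. RBL2 and E2F6 had the narrowest spans, 0.86 and 0.72.

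The make-up of the E2F pool shifted, in transcripts per kilobase. E2F4 with E2F5 lost share in 8 of 10 lines, with a median difference over 10 lines of -15.0 percentage points. The atypical pair gained in 7 of 10 (median difference 5.69 points). A share also falls when other members rise. In HL-60 the share of E2F4 with E2F5 went from 45.6% ± 0.868 to 29.5% ± 3.83 (SD, n = 3), though neither gene passed there (log2 fold change -0.09 and -0.25). In THP-1, counted as a loss, it went only from 41.4% ± 1.30 to 40.5% ± 2.41. In KASUMI-1 E2F7 with E2F8 went from 9.01% ± 0.576 to 28% ± 3.93 (SD, n = 3) of the pool. In MONO-MAC-6 the same pair went from 11% ± 0.310 to 27.6% ± 0.561 and E2F4 with E2F5 from 33% ± 0.298 to 17.5% ± 0.200. The activators gained most in NB-4, from 43.3% ± 1.11 to 56.7% ± 0.904, in HL-60 and in F-36P, and lost most in MOLM-13, from 37.8% ± 0.981 to 34.3% ± 0.873. MOLM-13 and OCI-AML3 were the lines in which E2F4 with E2F5 gained share, from 42.4% ± 1.64 to 49.5% ± 0.324 and from 44.5% ± 2.31 to 46.9% ± 0.745. Neither gene rose there: the log2 fold change was -0.99 and -1.0 for E2F5 and -0.16 and -0.05 for E2F4. The shares are a description with no test.

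**Figure D3:**
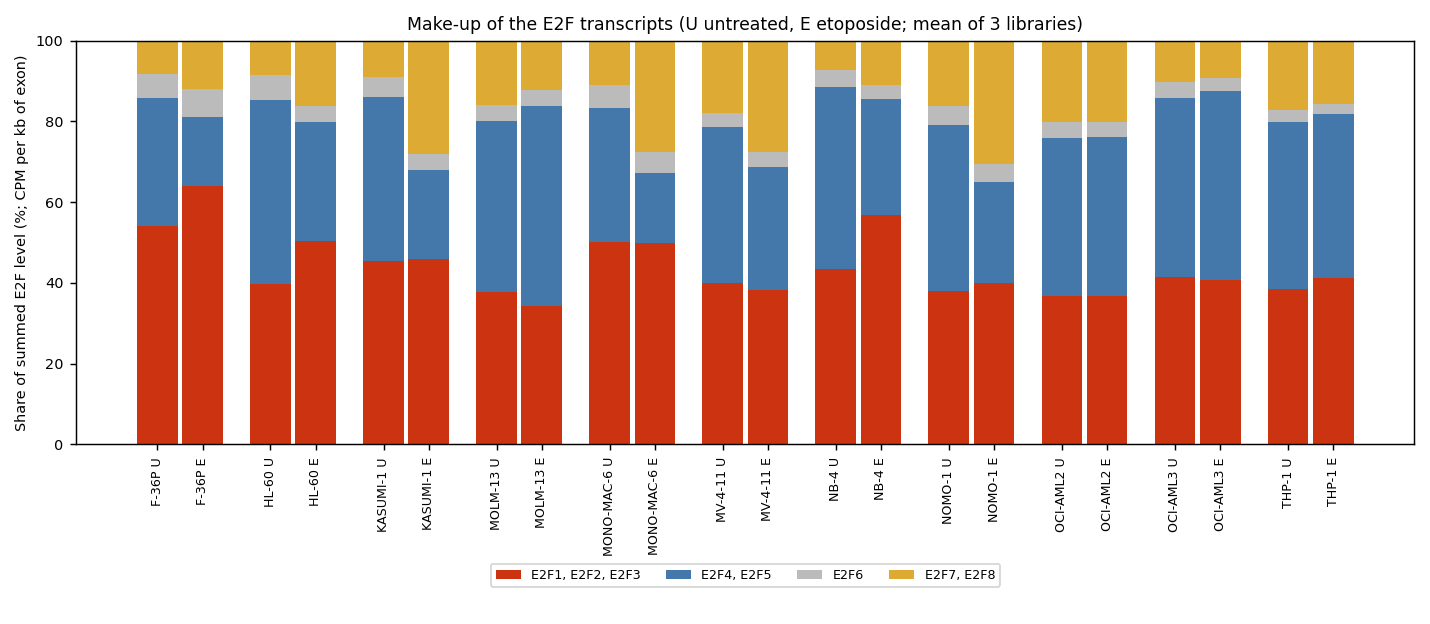
Share of the summed E2F level (CPM per kb of exon, y axis, in percent) held by the activators, E2F4 with E2F5, E2F6 and the atypical pair in each line, untreated (U) and after etoposide (E), as the mean of 3 libraries. The gold segment of E2F7 and E2F8 widens from 9.01% to 28% in KASUMI-1 and narrows from 15.9% to 12.2% in MOLM-13.

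The genes around the family were counted in the same way over the 10 lines, against 27.7% higher and 24.4% lower of all tests. Of the 21 G1/S genes that activator E2Fs are known to turn on, 91 of 210 tests were higher and 59 lower at FDR below 0.05, with a median log2 fold change of 0.14. CCNE2, a cyclin that starts S phase with CDK2, was called up by more than 2-fold in 6 lines, at -0.89 to 2.33. RRM2, a ribonucleotide reductase subunit, was 1 of 10 genes called down, each in MOLM-13 alone, and was also called up in 3 lines. All 21 G1/S genes were lower at FDR below 0.05 in MOLM-13 (median -0.97), while 17 were higher in NOMO-1 and 17 in MONO-MAC-6. Of the 20 G2/M genes, which B-MYB, FOXM1 and the MuvB core control, 39 of 200 tests were higher and 95 lower at FDR below 0.05, with a median of -0.24. CDC20, an activator of the anaphase-promoting complex, was called down in 5 lines, and CDC25C, a phosphatase that frees CDK1, was called up in 1. MOLM-13 had all 20 lower (median -1.21), and KASUMI-1 had 16 higher.

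Among the partners, the DP subunits TFDP1 and TFDP2 gave 9 lower and 4 higher of 20 tests; TFDP1 was lower in 7 lines and higher in 0, and no test passed 2-fold. The MuvB core with its kinase DYRK1A gave 17 higher and 13 lower of 60, with LIN37 called up in 2 lines and DYRK1A called down in 1. MYBL2 (B-MYB) and FOXM1 gave 12 higher and 4 lower of 20; MYBL2 was higher in 8 lines and lower in 2, from -1.12 to 1.02. The polycomb partners of E2F6 gave 25 lower and 12 higher of 90, with RYBP called down in 1 line and no gene called up. The cyclins D and kinases that act on pocket proteins gave 18 lower and 15 higher of 55, with CDK6 called down in 2 lines and CDK2 called up in 1. Of the CDK inhibitors, 14 of 41 tests were called up, 10 of them CDKN1A (1.86 to 5.46), and none down by edgeR, while 10 were lower at FDR below 0.05 alone.

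Across lines, the changes of E2F1, E2F2, E2F8 and RBL1 had the highest Pearson's r with those of the S phase genes when all tested lines were kept. This is a description over points that share libraries and scaling with the genes compared. Against the median log2 fold change of the 21 G1/S genes, E2F8 gave r = 0.940 (Spearman's rho 0.867, 10 lines) and r = 0.896 without MOLM-13 and OCI-AML3, the lines farthest from the median. E2F1 gave r = 0.848 (rho 0.588), which dropped to 0.427 without those lines and so rested on them in large part. RBL1 gave 0.858 (rho 0.770) and 0.645 without them, and E2F2 0.906 over 9 lines (rho 0.800) and 0.610 without MOLM-13 and MONO-MAC-6. E2F6 gave 0.731 (rho 0.624, above that of E2F1), which dropped to 0.211 without MOLM-13 and OCI-AML3. The activator E2F3 gave 0.280 (rho 0.503), which rose to 0.523 without those lines. E2F4 (-0.119, rho -0.139), E2F5 (-0.212, rho -0.383) and RBL2 (-0.386, rho -0.345) did not follow the G1/S genes with all tested lines kept. Without MOLM-13 and OCI-AML3 the r values were 0.354, -0.140 and 0.256, so the signs of E2F4 and RBL2 rested on those lines. E2F7 lay between, at 0.534 (rho 0.533, 9 lines), where OCI-AML3 raised E2F7 while its G1/S genes had a median of -0.39. Without MOLM-13 and OCI-AML3 E2F7 gave 0.548, so that E2F1 (0.427) then lay below E2F7 and E2F3. The change of CDKN1A had r = 0.0927 with that of E2F1 and 0.278 with that of E2F7. Within the family E2F3 had r = 0.808 with E2F4 (10 lines) and E2F1 r = 0.890 with E2F2 (9 lines). E2F3 and E2F4 both fell most in F-36P (-1.2 and -0.89) and KASUMI-1 (-0.57 and -0.61). In MONO-MAC-6 (0.22 and -0.33) and NB-4 (0.14 and -0.32) their changes had opposite signs. How far either r rests on single lines was not tested.

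**Figure D4:**
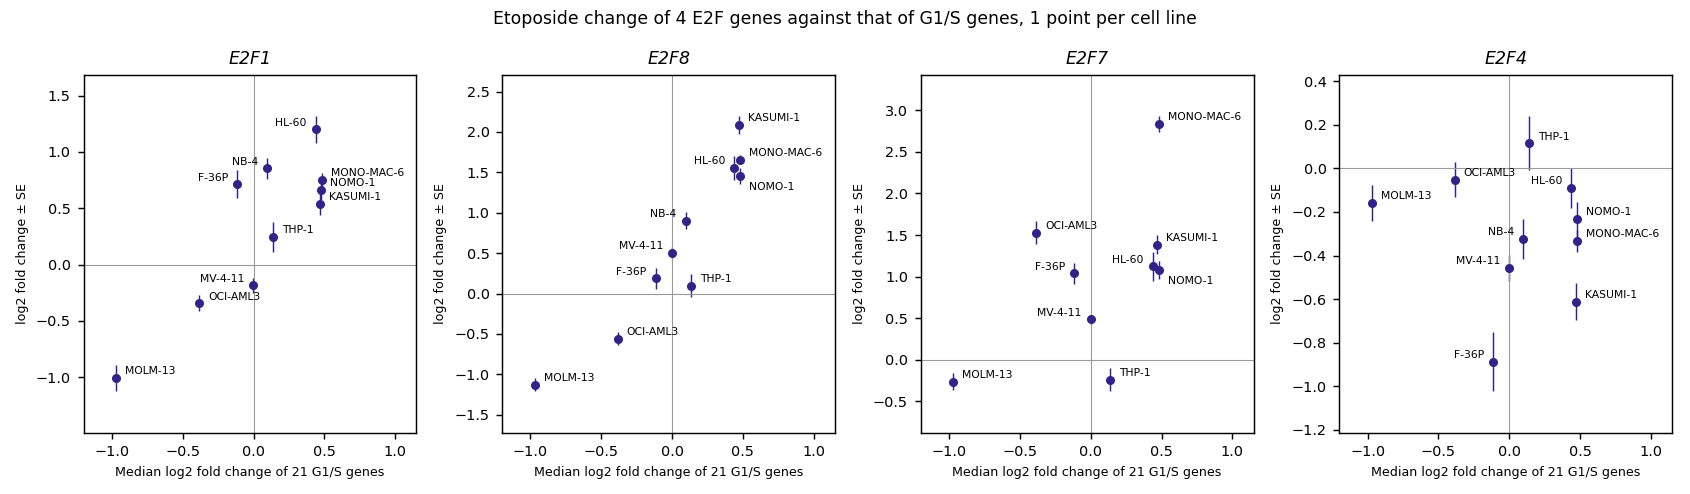
Log2 fold change of E2F1, E2F8, E2F7 and E2F4 (y axis, ± SE) against the median log2 fold change of 21 G1/S genes (x axis), 1 point per cell line of 10. E2F8 and E2F1 run from MOLM-13 at the lower left to HL-60, KASUMI-1, MONO-MAC-6 and NOMO-1 at the upper right; NB-4 has no E2F7 point.

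The genes whose pattern was most like that of a member are named for reference, by Pearson's r of the log2 fold change over 10 lines (9 for E2F2 and E2F7) among 10511 genes for the 10 lines. The best of so many genes over 9 to 11 points can reach a high r without any link. No chance level was worked out, and shared control was not tested. E2F1 was nearest to STK35, ING2 and PSMC3IP (r = 0.958 to 0.945), E2F2 to UFD1, PAQR4 and FANCM (r = 0.981 to 0.979) and E2F3 to RALY, PAFAH1B1 and PTBP1 (r = 0.982 to 0.974). For E2F4 they were CINP, EIF3B and SCO1 (r = 0.985 to 0.973) and for E2F6 RAB29, SIAH1 and ERRFI1 (r = 0.938 to 0.916). For E2F7 they were RTEL1-TNFRSF6B, LINC01128 and KRIT1 (r = 0.926 to 0.893) and for E2F8 XNDC1N, XRCC1 and ZNF672 (r = 0.977 to 0.969). RBL1 was nearest to ATP2C1, BCAS2 and DTL (r = 0.954 to 0.943) and RBL2 to CFLAR and unnamed genes (r = 0.925 to 0.910). In the untreated level over 11 lines, E2F1 was nearest to ZNF675, CALML4 and BRD7 (r = 0.890 to 0.853), E2F2 to CEP120, CNTRL and SETDB2 (r = 0.925 to 0.889), E2F3 to DFFA, DYRK3 and UBE4B (r = 0.926 to 0.897) and E2F4 to HNRNPAB, TCHP and UBTF (r = 0.924 to 0.907). E2F5 was nearest to REEP5, EVL and RYK (r = 0.938 to 0.914), E2F6 to VEZT, IFT172 and RPL17 (r = 0.915 to 0.906), E2F7 to LGALS9, GLI4 and an unnamed gene (r = 0.926 to 0.882) and E2F8 to CCDC78, NUDT1 and DAZAP2 (r = 0.943 to 0.911). RBL1 stood by GABPB2, IQCE and RCAN1 (r = 0.956 to 0.924) and RBL2 by ADPRM, RPL26 and DDX19A (r = 0.930 to 0.916).

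In OCI-AML2 no member passed the test, where 0.0221% of 13604 genes (3) did. E2F1 was at 59.7, 58.9 and 60.7 CPM untreated and 54.6, 59.3 and 58.8 CPM treated, E2F5 at 15.5, 14.6 and 14.0 and 16.4, 16.1 and 14.5 CPM, and E2F7 at 42.1, 43.2 and 37.2 and 45.5, 45.3 and 34.1 CPM. The groups of all 3 overlapped, 0 of 10 members had an unadjusted p below 0.05 (the lowest was 0.0517, of E2F2), DESeq2 called 16 of all genes, and the adjusted p of these 3 by edgeR was 0.998. The largest change of a member was that of E2F2 (-0.43, 95% interval -0.86 to 0.0036). CDKN1A went from 45.8 ± 1.94 to 76.1 ± 3.54 CPM.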

How the data were processed

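Total RNA of 11 AML cell lines was sequenced after a stranded mRNA library preparation, in 33 untreated and 33 etoposide-treated libraries. Each extract pooled cells of 3 wells. The authors aligned reads with STAR 2.5.3a to GRCh38.p7 with gencode release 25 annotation and deposited raw read counts per gene; which of STAR's count columns was kept is not given in the sources used here, so reads of overlapping genes on opposite strands may or may not be told apart.

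Of 58037 identifiers per file, 45 copies on the Y pseudoautosomal region, with 0 reads, were left out. Counts were tested within each line by edgeR 4.0.16 in R 4.3.3 (filterByExpr with a minimum count of 10, TMM, glmQLFit and glmQLFTest, Benjamini-Hochberg adjustment over all genes tested), with a call at FDR below 0.05 and more than 2-fold. Means over 10 lines were tested by limma 3.58.1 on the per-line log2 fold changes, differences in response and untreated levels by edgeR in joint fits. DESeq2 1.42.0 was an alternative. Exon lengths came from gencode release 44 and promoters from RefSeq (GRCh38.p14). Pandas 2.3.3 and matplotlib 3.10.9 made tables and plots. Limits of 3 reads cover counting error only. The tests were checked on simulated data in which every gene had the same spread. That check does not cover the spread of the libraries used here. Replicates differed beyond sampling noise (chi-square per degree of freedom from 2.05 to 83.5).

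The 10 members were all named; in each gene list the gene called in most lines in each direction was named, and for each member the 3 genes with the highest Pearson r of the log2 fold change over 10 lines and the 3 of the untreated log2 CPM over 11 lines, among genes tested in all lines with a mean of at least 1 CPM. The genes nearest to E2F5 in log2 fold change are not reported here. Members, lists and tests were chosen with earlier results of these data known. Replicate numbers were checked for pairing by the correlation of deviations from group means. The treated OCI-AML2 libraries, which the study discarded after quality control, entered no result over lines except 1 named alternative.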

Additional observations from a re-analysis of the deposited data

Results flagged for a closer look

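The etoposide response differed between the 10 lines for every member by edgeR's line-by-treatment test, with adjusted p-values for E2F1 (4.32e-17), E2F2 (8.09e-07), E2F3 (2.56e-18), E2F4 (1.47e-07), E2F5 (1.65e-14), E2F6 (1.19e-05), E2F7 (4.46e-17), E2F8 (7.51e-24), RBL1 (1.34e-05) and RBL2 (3.77e-06). The share of all genes that passed the same test is 74.5%, so the result does not mark the family out. No line's log2 fold change stood apart from the other lines by Dixon's test (critical value 0.466 for 10 lines and 0.493 for 9, a test that flags about 1 in 20 groups by chance).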

How the results depend on the processing

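The 26 member-line changes past 2-fold at FDR below 0.05 numbered 24 to 26 under RLE or library-size scaling, the exact test, DESeq2, no filter and a single fit of 60 libraries. They numbered 17 with a minimum of 5 CPM, which left E2F2 untested in every line, and 64 at FDR alone. With the replicate number as a replicate block the count was 26 again, and 64 at FDR alone. Libraries were taken as paired where the lowest correlation of deviations was above 0.1. Only NB-4 passed this limit (0.151), and the block changed no member's call there. MOLM-13 (0.089) and OCI-AML2 (0.082) lay just under it, so that some pairing in other lines stays possible. In the lines below the limit, the block lost E2F4 and E2F6 in NOMO-1 (adjusted p = 0.104 and 0.0756) and added RBL2 in HL-60 and KASUMI-1. Leaving out libraries by replicate number or singly gave 23 to 26 changes past 2-fold and 55 to 65 at FDR alone. Of 1640 values of a member in a line under an alternative, 1544 stayed on their side of the threshold, 69 lost it, 27 gained it and none changed sign while called. The member calls at FDR alone were 53.1% higher, and 61.9% higher with library-size scaling, beside 53.1% and 64.7% of all called genes.

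The 1 member whose mean over 10 lines passed (E2F4) was joined or replaced under other choices. There were 3 without MOLM-13 (E2F1, E2F4, E2F8), 3 without OCI-AML3 (E2F2, E2F4, E2F8), 2 without MV-4-11 (E2F4, E2F5) and 2 without NB-4 (E2F4, E2F7). E2F2, E2F5 and E2F7 each miss the filter in 1 line and are tested in all lines only when that line (OCI-AML3, MV-4-11 and NB-4) is left out; the cause of the other changes was not tested. With genes tested in at least 8 lines, chosen after seeing the data, 4 passed. In 1 fit of 60 libraries, which takes libraries and not lines as the unit, 7 passed, and E2F7 could not be judged there because NB-4 is at 0. With library size alone E2F8 passed in place of E2F4. Leaving out replicate numbers gave 0 to 1. All 10 members kept a difference in response between lines (8 with a span above 1 required) and all 10 a difference in untreated level under every alternative run. Depth limits E2F2 most, at 3 to 166 reads a library.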

Other observations

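The absence of E2F7 from NB-4 and of E2F5 from MV-4-11 was shared by a handful of genes, named here after their values were seen. At 0 reads in the 6 NB-4 libraries, with a lowest line mean elsewhere no lower than that of E2F7, were OXCT1, SMIM15, RMDN1, GPD2, CTPS2, TCEAL8, FBXO25, BTG3 and LINC01278. OXCT1, a mitochondrial enzyme of ketone body use, averaged 35.7 CPM or more in each other line, and GPD2, a mitochondrial glycerol-3-phosphate dehydrogenase, 22.3 CPM or more. With no more reads in the 6 MV-4-11 libraries than E2F5 and a lowest line mean elsewhere no lower than its own were ZNF83, CPPED1, ZNF440, RRAGB and AGK. Apart from LINC01278, whose position was not looked up, the NB-4 genes lie on chromosomes other than chromosome 12, where E2F7 is, and of the MV-4-11 genes none shares chromosome 8 with E2F5.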
